A study of Mus musculus with 6 samples.

Results

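The insulin and insulin-like growth factor (IGF) signalling genes described here are 10 genes picked by symbol from the deposited count table, out of 53858 genes in it. They are the receptor genes *Igf1r*, *Insr* and *Igf2r*, the ligand genes *Igf1* and *Igf2*, the adaptor genes *Irs1* and *Irs2*, and the binding protein genes *Igfbp2*, *Igfbp3* and *Igfbp5*. All 10 had a row, and 7 had enough counts for the test between groups. *Igf2*, *Igfbp2* and *Igfbp5* did not.

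The 6 libraries each hold polyadenylated RNA of a few spinal cord motor neurons, collected from wild-type mice 6 days after the sciatic nerve had been crushed (day 6). All the cells carried DiO, a lipophilic dye put at the proximal site on day 0 that fills the injured neurons from their cut axons. The 3 double-labelled pools also carried DiI, put at a distal site on day 2 and taken up by the first axons to arrive there, and the 3 DiO-only pools lacked it. Each pool was 10 to 15 picked cells, and the labels do not say whether the pools came from separate mice or give strain, age or sex. The p-values therefore measure only the spread between these pools, which may be technical.

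IGF1 and IGF2 act through the IGF1 receptor, and insulin through the insulin receptor, which are closely related tyrosine kinases. Once bound, the receptors phosphorylate the adaptors IRS1 and IRS2, which recruit phosphoinositide 3-kinase and start AKT and mTOR signalling, while a parallel route runs through RAS and ERK. AKT keeps FOXO transcription factors out of the nucleus. The IGF2 receptor, also the mannose 6-phosphate receptor, carries IGF2 to lysosomes, and IGF-binding proteins hold IGFs outside cells and set how much reaches the receptors. IGF1 is a known survival and outgrowth factor for motor neurons, supplied by muscle, glia and Schwann cells among others.

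Total counts ran from 2997714 to 6563403 per library, so that 3 counts, the limit a count of 0 allows, correspond to 0.457 to 1.00 CPM (a count relative to the library's total). Fewer genes had a count in every double-labelled library, 15657 to 16467, than in every DiO-only library, 17229 to 22118. The part of this difference in zero or sparse counts was not tested. Motor neuron markers were present in both groups, with all 7 listed genes tested and summed levels of 3270 to 4879 CPM in double-labelled pools and 3436 to 5133 CPM in DiO-only pools. Summed oligodendrocyte markers did not overlap between groups, at 1457 to 4936 CPM in double-labelled pools and 288 to 584 CPM in DiO-only pools. Most of that sum came from *Mbp*, with a mean of 2352 CPM in double-labelled pools and 292 CPM in DiO-only pools. Among the single markers, *Mag*, *Cldn11* and *Aspa* overlapped between groups. Most astrocyte markers moved the same way, with 8 of 10 tested markers higher in double-labelled pools and a median log2 fold change of 2.49, beside 2.45 for oligodendrocyte markers. *Slc1a2*, *Atp1b2*, *Aqp4*, *Fgfr3* and *Gja1* were higher without overlap between groups, as were 5.86% of all tested genes. *Aldh1l1* and *S100b* were lower, with overlapping groups. Their means were 9.14 and 429 CPM in double-labelled pools, against 22.0 and 469 CPM in DiO-only pools. The summed level of all 11 astrocyte markers did overlap, at 1068 to 2334 CPM in double-labelled pools and 868 to 1284 CPM in DiO-only pools. Most of that sum came from *Aldoc* and *S100b*. Microglia markers also overlapped, at 49.8 to 132 and 89.3 to 98.3 CPM, and endothelial and pericyte markers stood at 5.86 to 11.1 and 3.79 to 38.0 CPM. Double-labelled pools 1 and 3 lay at opposite ends of the first principal component, which held 33.8% of the variance. Their scores were 123 and -64, with the other libraries between -32.2 and 0.231. In these small bulk samples, fewer cells of a type and less RNA per cell cannot be told apart.

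Comparing both kinds of pool addresses how transcripts of neurons that regrew early to the distal site compare with those of injured neurons that the distal dye did not mark. *Irs2* was the most abundant of the 10 genes and had the smallest p, at 0.534-fold its DiO-only level in double-labelled pools. *Igf1r* was 1.54-fold and *Igf2r* 0.746-fold their DiO-only levels. The ratio of *Igf1r* to *Igf2r* counts was higher in all 3 double-labelled libraries than in any DiO-only library. This followed from their TMM-scaled levels, *Igf1r* being higher and *Igf2r* lower without overlap, and adds no separate result. Such separation of a ratio held for 13.0% of all pairs of tested genes. The exact two-sided permutation p of this ratio was 0.1, the smallest possible, and 0.525 when adjusted over 21 pairs. None of the 7 tested genes passed. In edgeR's quasi-likelihood test with Benjamini-Hochberg adjustment, 0 of the 7 tested genes were called and 1 had an unadjusted p under 0.05, against 0% and 5.81% of all 12954 tested genes. DESeq2 without the low-count filter also called 0 members, against 0.492% of genes, as did edgeR without that filter, against 0.277%, edgeR with a replicate block, against 0.178%, and limma voom. The groups did not overlap in CPM for 3 of the 10 genes, *Igf1r*, *Igf2r* and *Irs2*, against 12.9% of all tested genes. *Igf1r* was the higher one, against 5.86% of all tested genes, and *Igf2r* and *Irs2* the lower ones, against 7.07%.

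**Figure D1:**
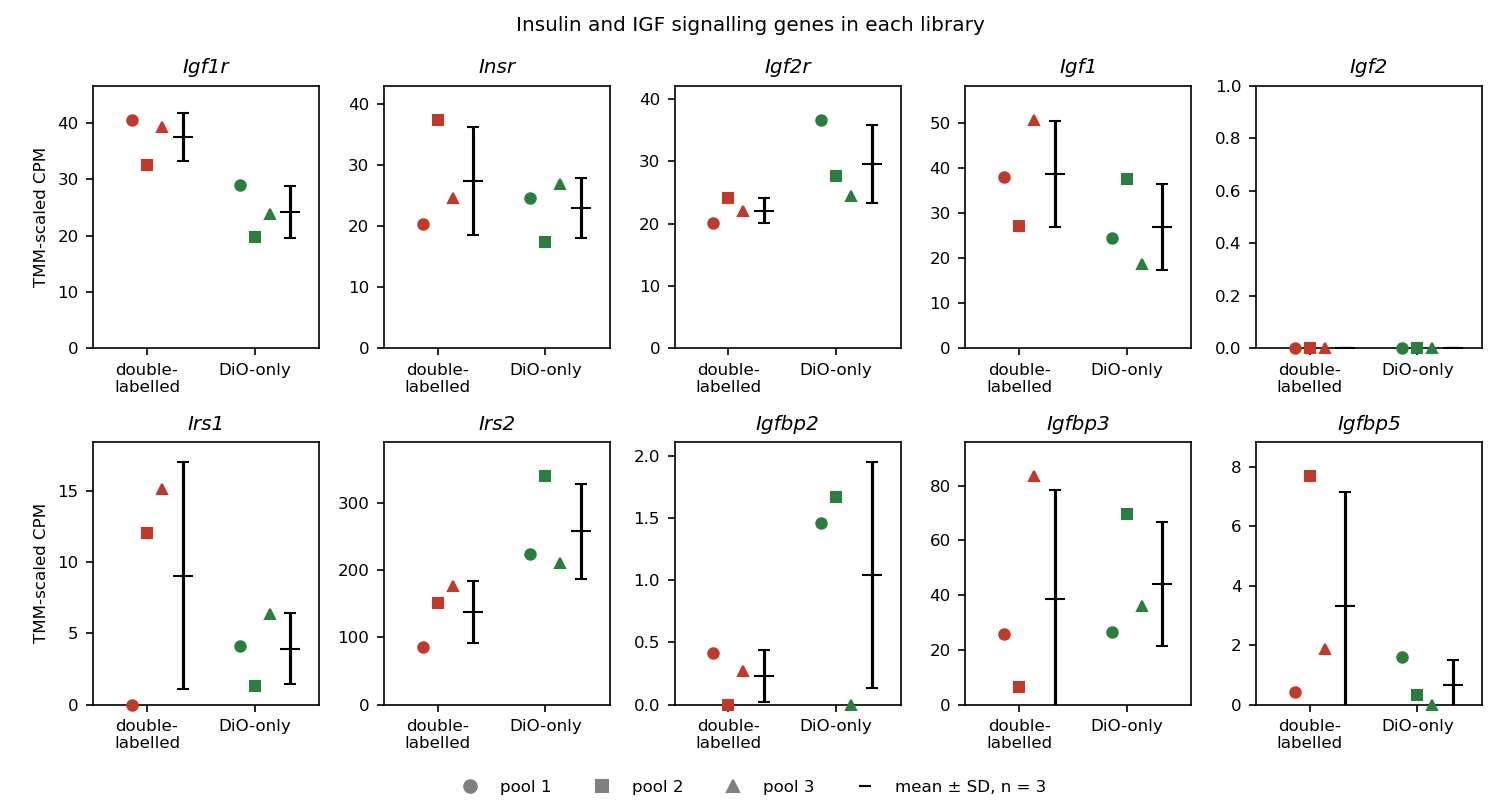
TMM-scaled CPM (linear axes from 0) of each of the 10 genes in the 3 double-labelled pools (red, left) and the 3 DiO-only pools (green, right); symbols mark pool numbers, and black bars give the mean and SD (n = 3), cut at 0. *Irs2* lies between 85.7 and 176 CPM in double-labelled pools, below the lowest DiO-only pool at 210 CPM, while *Igf2* is at 0 in all 6 libraries.

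Among the receptors, *Igf1r* encodes the main receptor of both IGFs (ENSMUSG00000005533; mm10 chromosome 7, 67952827 to 68233668, plus strand). Its level was 40.5, 32.6 and 39.3 CPM in double-labelled pools 1, 2 and 3 (counts scaled with TMM factors), against 29.0, 19.7 and 23.9 CPM in DiO-only pools 1, 2 and 3. Every double-labelled pool was above every DiO-only pool. The means were 37.4 ± 4.26 CPM and 24.2 ± 4.67 CPM (SD, n = 3 each), with a log2 fold change of 0.63 ± 0.39 (SE; 95% interval -0.22 to 1.47; edgeR adjusted p = 0.929). Scaled by total counts alone, the groups met, the lowest double-labelled pool standing at 29.7 CPM and the highest DiO-only pool at 30.6 CPM. The part of the oligodendrocyte and astrocyte markers in the *Igf1r* difference was not tested.

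*Igf2r*, of the receptor that removes IGF2 (ENSMUSG00000023830; chromosome 17, 12682406 to 12769664, minus strand), lay the other way round. Its level was 20.1, 24.2 and 22.0 CPM in double-labelled pools, against 36.6, 27.7 and 24.4 CPM in DiO-only pools. The gap between groups was narrow, and it closed both with total counts and with DESeq2 size factors. Its log2 fold change was -0.42 ± 0.41 (SE; 95% interval -1.32 to 0.47; edgeR adjusted p = 0.970). In mice *Igf2r* is an imprinted gene, and the antisense RNA gene *Airn*, whose transcription silences it on the paternal allele in many tissues, starts inside it. *Airn* shares no annotated exon base with *Igf2r* and had 35, 75 and 178 counts in double-labelled libraries, against 131, 60 and 138 counts in DiO-only libraries. Its level was 19.5 ± 10.8 CPM in double-labelled pools and 20.96 ± 2.43 CPM in DiO-only pools (SD, n = 3 each), with overlapping groups.

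*Insr*, of the insulin receptor (ENSMUSG00000005534; chromosome 8, 3122061 to 3279617, minus strand), was at 20.3, 37.3 and 24.7 CPM in double-labelled pools, against 24.7, 17.4 and 26.8 CPM in DiO-only pools. The groups overlapped. Its log2 fold change was 0.25 ± 0.44 (SE; 95% interval -0.71 to 1.21; edgeR adjusted p = 0.987). Without double-labelled pool 2, the highest library, the sign turned to -0.048, and without double-labelled pool 1 the value was 0.42. The intervals of all 3 receptor genes include 0.

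Of the ligands, *Igf1* was detected in every library. The gene (ENSMUSG00000020053; chromosome 10, 87858265 to 87937042, plus strand) stood at 38.0, 27.1 and 50.5 CPM in double-labelled pools, against 24.4, 37.4 and 18.7 CPM in DiO-only pools. The groups overlapped, since DiO-only pool 2 was higher than double-labelled pool 2. The means were 38.5 ± 11.7 and 26.8 ± 9.59 CPM (SD, n = 3 each), and the log2 fold change was 0.53 ± 0.43 (SE; edgeR adjusted p = 0.961). Microglia can make IGF1. Of the 13 microglia and macrophage markers, 5 were tested, of which 1 was higher in double-labelled pools (median log2 fold change -0.46). *Cd68* and *Mrc1*, with 46 and 3 counts over all libraries, were at 0 in all double-labelled libraries. The means of *Ctss*, *P2ry12*, *C1qa* and *Aif1* were higher in double-labelled pools, with overlapping groups. They were 9.20, 4.17, 3.11 and 1.92 CPM there, against 6.30, 1.74, 1.55 and 1.30 CPM in DiO-only pools. *Csf1r*, one of the tested markers, was lower without overlap, as were 7.07% of all tested genes. It stood at 16.6, 14.6 and 15.4 CPM in double-labelled pools, against 23.8, 28.4 and 27.7 CPM in DiO-only pools. *Cx3cr1*, too sparse for the test, had 0, 0 and 77 counts in double-labelled libraries, against 0, 3 and 0 counts in DiO-only libraries. Double-labelled pool 3, which held most of the *Cx3cr1* counts, was also the highest library for *Igf1*. Double-labelled pools 1 and 2 had 0 counts of *Cx3cr1*, 81 and 40 counts of *Csf1r*, and 185 and 74 counts of *Igf1*. The part of microglial RNA in the *Igf1* level was not tested.

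*Igf2* (ENSMUSG00000048583; chromosome 7, 142650766 to 142666816, minus strand) had 0 counts in all 6 libraries, so no fold is given. A predicted gene of the same strand covers 62.8% of its exonic bases and had 0 counts as well, and how reads shared by overlapping genes were counted is not given in the sources used here. *H19*, the imprinted neighbour of *Igf2*, had 2 counts over all libraries. The insulin genes *Ins1* and *Ins2* had 0 and 6 counts over all libraries. Of the insulin-like peptide genes, which encode relatives of insulin that use other receptors, *Insl3*, *Insl5* and *Insl6* had 66, 103 and 146 counts over all libraries.

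The adaptor *Irs2* couples insulin and IGF receptors to phosphoinositide 3-kinase and is itself a known target of FOXO factors. The gene (ENSMUSG00000038894; chromosome 8, 10984681 to 11008458, minus strand) had 417, 413 and 1311 counts in double-labelled libraries, against 1534, 1016 and 1224 counts in DiO-only libraries. Scaled, these were 85.7, 151 and 176 CPM in double-labelled pools, against 224, 339 and 210 CPM in DiO-only pools. All 3 double-labelled pools were below all 3 DiO-only pools, and the groups stayed apart with total counts and with DESeq2 size factors. The means were 138 ± 46.5 CPM and 258 ± 71.0 CPM (SD, n = 3 each). The log2 fold change was -0.91 ± 0.36 (SE; 95% interval -1.69 to -0.12; unadjusted p = 0.0270, edgeR adjusted p = 0.742). By unadjusted p it ranked 470 of 12954 genes, and 2.63% of them had an unadjusted p under 0.05 with a lower level. Without double-labelled pool 1, the library furthest out on the first principal component, the log2 fold change was -0.67 ± 0.34 (SE; edgeR adjusted p = 0.702). Without double-labelled pool 3, at its other end, it was -1.13 ± 0.40 (SE; edgeR adjusted p = 0.463). Summed oligodendrocyte markers also separated the groups, at 1457 to 4936 CPM in double-labelled pools and 288 to 584 CPM in DiO-only pools, with 11 of 12 markers tested and all 11 higher. Of astrocyte markers 8 of 10 tested were higher, while *Aldh1l1* and *S100b* were lower. Among the higher, *Slc1a2* stood at 93.3, 39.9 and 84.7 CPM in double-labelled pools, against 10.6, 15.0 and 14.3 CPM in DiO-only pools. The part of either list in the *Irs2* difference was not tested. A transcript gene on the opposite strand, *9530052E02Rik*, shares 162 exonic bases with *Irs2*, 2.56% of the exonic bases of *Irs2*.

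*Irs1*, of the other widely used adaptor (ENSMUSG00000055980; chromosome 1, 82233101 to 82291416, minus strand), was sparse and uneven. It had 0, 33 and 113 counts in double-labelled libraries, against 28, 4 and 37 counts in DiO-only libraries. The 0 in double-labelled pool 1 allows up to 0.602 CPM there. Double-labelled pools 2 and 3 were the highest of the 6 libraries and double-labelled pool 1 the lowest, so the log2 fold change of 1.19 had a standard error of 1.29 (edgeR adjusted p = 0.974). A predicted gene on the opposite strand, *Gm9747*, shares 2822 exonic bases with *Irs1*. These are all exonic bases of *Gm9747* and 30.9% of those of *Irs1*. *Gm9747* had 0, 46 and 103 counts in double-labelled libraries, against 33, 3 and 27 counts in DiO-only libraries. Without strand, reads in the shared part cannot be told apart, and the strand setting is not given in the sources used here.

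*Igfbp3* encodes the main carrier of IGFs in blood, which cells also secrete locally (ENSMUSG00000020427; chromosome 11, 7206086 to 7213923, minus strand). Its SD in double-labelled pools, 40.1 CPM, exceeded its mean of 38.4 CPM there. Its level was 25.7, 6.22 and 83.3 CPM in double-labelled pools, against 26.4, 69.5 and 35.9 CPM in DiO-only pools. Double-labelled pool 3 was the highest and double-labelled pool 2 the lowest of all 6 libraries, with the DiO-only pools between them. The log2 fold change of -0.17 ± 0.72 (SE; edgeR adjusted p = 0.987) changed sign with the scaling and with the library left out. It was 0.035 with total counts, 0.31 without DiO-only pool 2, 0.032 without double-labelled pool 1, 0.29 without double-labelled pool 2 and -1.44 without double-labelled pool 3.

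The other binding protein genes were close to the limit of detection. *Igfbp5*, of a binding protein that also attaches to extracellular matrix (ENSMUSG00000026185; chromosome 1, 72857932 to 72874884, minus strand), had 2, 21 and 14 counts in double-labelled libraries, against 11, 1 and 0 counts in DiO-only libraries. Its level was 3.32 ± 3.85 CPM in double-labelled pools and 0.646 ± 0.847 CPM in DiO-only pools (SD, n = 3 each; exact two-sided permutation p = 0.2, where 0.1 is the smallest possible). *Igfbp2*, of a binding protein that astrocytes can make (ENSMUSG00000039323; chromosome 1, 72824503 to 72852474, plus strand), had 2, 0 and 2 counts in double-labelled libraries, against 10, 5 and 0 counts in DiO-only libraries. Its level was 0.226 ± 0.209 CPM in double-labelled pools and 1.04 ± 0.909 CPM in DiO-only pools (SD, n = 3 each; exact two-sided permutation p = 0.4). With 3 pools a group this test cannot reach 0.05, and both genes had few counts.

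Levels of different genes can be set side by side only per length, so each CPM value was divided by the gene's exonic length in kb. *Irs2* came first with 21.7 ± 7.36 CPM per kb in double-labelled pools and 40.8 ± 11.2 CPM per kb in DiO-only pools (SD, n = 3 each). *Igfbp3* followed with 12.3 ± 12.8 and 14.04 ± 7.23 CPM per kb. *Irs2* was above *Igfbp3* in 6 of 6 libraries, although the ranges of the genes over all libraries overlapped. *Igf1*, at 3.89 ± 1.18 and 2.71 ± 0.968 CPM per kb, *Igf2r*, at 2.37 ± 0.216 and 3.18 ± 0.679, *Igf1r*, at 2.23 ± 0.254 and 1.44 ± 0.278, and *Insr*, at 2.00 ± 0.642 and 1.67 ± 0.360, formed a group of neighbours whose ranges ran into each other. *Igf1r* was above *Insr* in 2 of 6 libraries. *Irs1* was lower, at 0.992 ± 0.875 and 0.429 ± 0.275 CPM per kb, and below *Insr* in 6 of 6 libraries. Among all tested genes, 88.6% had a lower mean level per kb than *Irs2*, 76.0% a lower one than *Igfbp3*, 24.5% than *Igf1r* and 7.02% than *Irs1*.

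**Figure D2:**
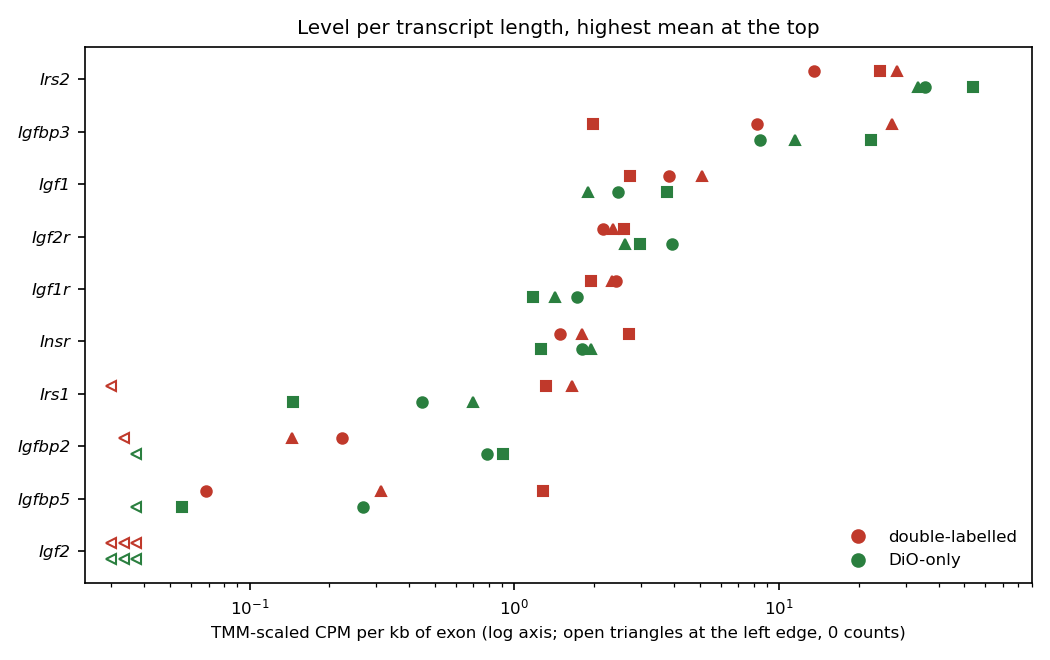
TMM-scaled CPM per kb of exon (log axis) of the 10 genes, ordered by their mean over 6 libraries, for double-labelled pools (red, upper row of each gene) and DiO-only pools (green, lower row); open triangles at the left edge are libraries with 0 counts. *Irs2* lies between 13.6 and 53.7 CPM per kb, and the 3 receptor genes all lie between 1.17 and 3.93 CPM per kb.

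The ratio of 2 genes within a library does not depend on how libraries are scaled. All 21 pairs of the 7 tested genes were compared as differences of log2 CPM, a family chosen after the values were seen. In 4 pairs the groups did not overlap, where 13.0% of all pairs of tested genes did not. For *Igf1r* with *Igf2r* and *Igf1r* with *Irs2* this followed from their TMM-scaled levels. There *Igf1r* was higher, and *Igf2r* and *Irs2* lower, without overlap. *Igf1r* had 2.01, 1.35 and 1.79 counts per count of *Igf2r* in double-labelled libraries, against 0.793, 0.711 and 0.979 in DiO-only libraries. These ratios are not corrected for length, and the genes have 16791 and 9308 exonic bases, so a ratio of 1 does not mark equal levels. Per kb, *Igf2r* was above *Igf1r* in 5 of 6 libraries. The mean log2 ratio was 0.75 ± 0.29 in double-labelled pools and -0.28 ± 0.23 in DiO-only pools (SD, n = 3 each; exact two-sided permutation p = 0.1, the smallest possible; adjusted over the 21 pairs, p = 0.525). The other 3 pairs set *Igf1r*, *Insr* and *Igf1* against *Irs2*. *Igf1r* had 0.472, 0.215 and 0.223 counts per count of *Irs2* in double-labelled libraries, against 0.130, 0.0581 and 0.114 in DiO-only libraries. The log2 ratios to *Irs2* were higher in double-labelled pools by 1.57 for *Igf1r*, 1.46 for *Igf1* and 1.17 for *Insr*, each with the same exact permutation p of 0.1 and adjusted p of 0.525.

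**Figure D3:**
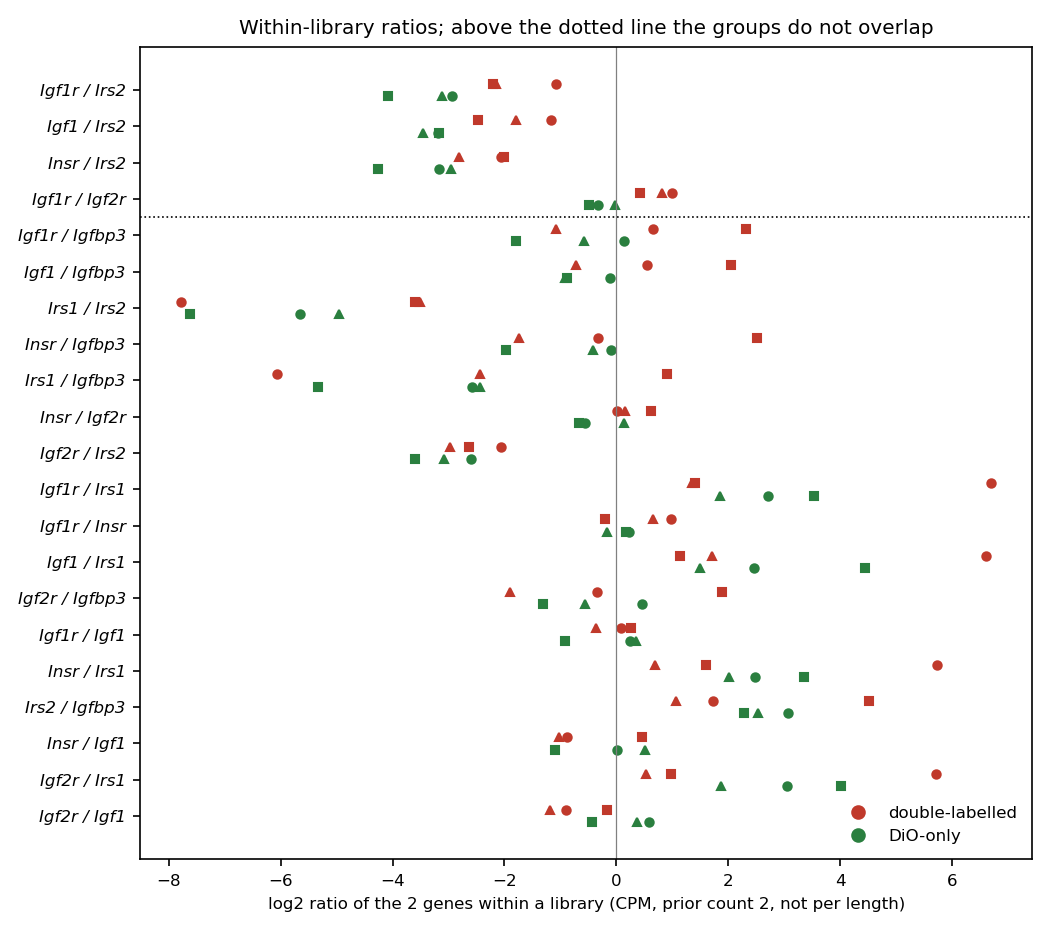
Within-library log2 ratio of CPM (prior count 2, not corrected for length) for the 21 pairs of the 7 tested genes, in double-labelled pools (red, upper row) and DiO-only pools (green, lower row); symbols mark pool numbers. Above the dotted line are the 4 pairs whose groups do not overlap, 3 of them with *Irs2* as the second gene, and pairs with *Irs1* are the most spread out.

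**Figure D4:**
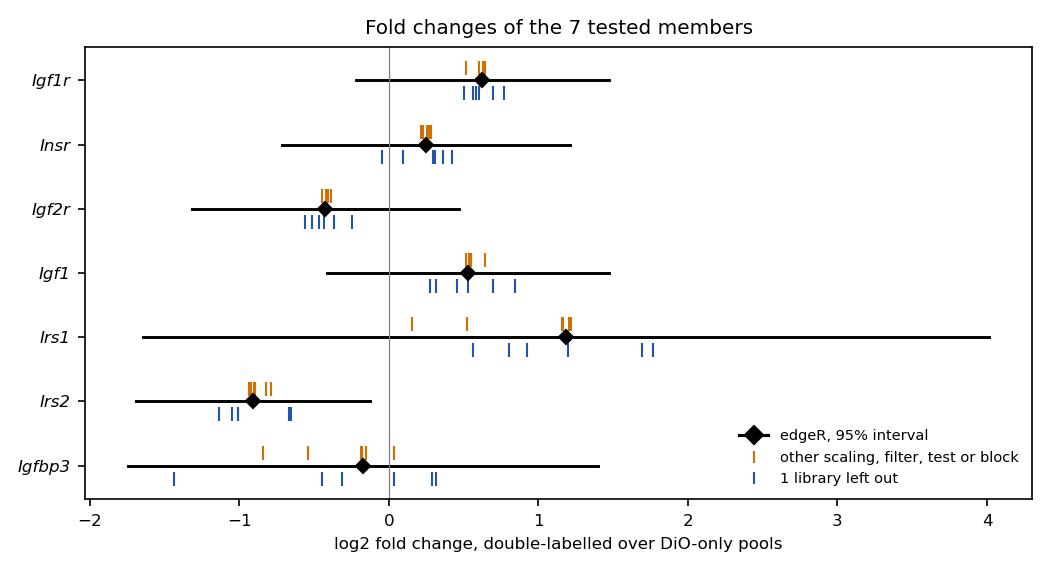
Log2 fold change of double-labelled over DiO-only pools for the 7 tested genes from edgeR (diamonds) with 95% intervals (black lines), and the same under other scalings, filters, tests or the block (orange) and with 1 library left out (blue). The interval of *Irs2*, -1.69 to -0.12, is the only one that does not cross 0, and *Irs1* has the widest, -1.64 to 4.01.

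The genes whose pattern over the 6 libraries was most like that of a member were sought for *Igf1r*, *Irs2* and *Igf1*, the last 2 having the smallest p among the other members. Likeness was Pearson's r of log2 CPM over 6 libraries, in which each library's depth, scaling and glial marker level bear on all its genes, among 9945 tested genes with a symbol and at least 5 CPM. For *Igf1r* these were *Qdpr*, of a pteridine reductase (r = 0.996), *Kcnj10*, of a potassium channel of glia (r = 0.987), and *Ankdd1b* (r = 0.983). *Kcnj10* stood at 39.0, 13.9 and 31.8 CPM in double-labelled pools, against 6.42, 1.67 and 2.41 CPM in DiO-only pools. The glial share of the *Igf1r* reads was not tested. For *Irs2* the nearest were *Cdk17*, of a cyclin-dependent kinase (r = 0.987), *St8sia3*, of a sialyltransferase (r = 0.986), and *Robo2*, of an axon guidance receptor for Slit proteins (r = 0.978). *Robo2* stood at 5.75, 24.9 and 21.6 CPM in double-labelled pools, against 49.6, 81.8 and 45.5 CPM in DiO-only pools. For *Igf1* they were *Knop1* (r = 0.990), *Adprhl2*, of an ADP-ribose hydrolase (r = 0.976), and *Cpt1a*, of the enzyme that admits fatty acids to mitochondria (r = 0.974). Between members, *Igf1r* and *Irs2* ran opposite to each other (r = -0.85 over 6 libraries) and *Insr* ran opposite to *Igfbp3* (r = -0.75).

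Downstream and around the receptors, 131 further genes in 7 lists were looked up, and 101 of them were tested. In edgeR 0 of the 101 passed after adjustment over all tested genes, and limma voom and DESeq2 called 0 too, while edgeR without the low-count filter called 1, *Cdkn1a*. At an unadjusted p under 0.05 there were 9, with 3 higher and 6 lower in double-labelled pools, where 3.18% of all tested genes were higher and 2.63% lower. The count of 9 dropped to 5, 4 and 2 without DiO-only pools 1, 2 and 3 and to 5 with total-count scaling. Over all 101 genes the median log2 fold change was -0.09, beside 0.02 for all tested genes.

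Of 24 tested receptor adaptors and regulators 19 were below their DiO-only level, where 6303 of all 12954 tested genes were, and the median log2 fold change was -0.33. Only 2 had an unadjusted p under 0.05, both lower, against 2.63% of all tested genes. *Shc2*, of an adaptor that links receptors to RAS, stood at 60.2, 35.9 and 48.1 CPM in double-labelled pools, against 86.1, 81.2 and 106 CPM in DiO-only pools (log2 fold change -0.92 ± 0.34, SE; edgeR adjusted p = 0.720). *Grb2*, of the adaptor that brings the RAS activator SOS to receptors, stood at 134, 121 and 68.7 CPM, against 195, 171 and 181 CPM (log2 fold change -0.76 ± 0.33, SE; edgeR adjusted p = 0.830). Neither gene had overlapping groups, where 7.07% of all tested genes were lower without overlap. *Grb10*, of an adaptor that restrains insulin and IGF1 receptors, averaged 13.7 ± 5.52 CPM in double-labelled pools and 24.1 ± 9.23 CPM in DiO-only pools (SD, n = 3 each), with overlapping groups.

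Of 19 tested genes of mTOR and its regulators 12 were above their DiO-only level, or 63.2%, against 51.3% of all tested genes, and the median log2 fold change was 0.27. The 3 with an unadjusted p under 0.05 were all higher, against 3.18% of all tested genes. *Tsc2*, of the tuberin protein that holds mTOR complex 1 in check, stood at 104, 122 and 151 CPM in double-labelled pools, against 76.7, 70.8 and 77.8 CPM in DiO-only pools (log2 fold change 0.74 ± 0.31, SE; edgeR adjusted p = 0.775). *Rictor*, of the core subunit of mTOR complex 2, stood at 51.6, 26.7 and 55.1 CPM, against 26.4, 21.4 and 18.6 CPM (log2 fold change 1.01 ± 0.42, SE; edgeR adjusted p = 0.778). Double-labelled pool 2 was only just above DiO-only pool 1 for *Rictor*, and the groups overlapped with total counts. *Rps6kb1*, of the S6 kinase that mTOR complex 1 activates, stood at 110, 51.2 and 103 CPM, against 60.4, 37.1 and 39.2 CPM, with overlapping groups (log2 fold change 0.95 ± 0.39, SE; edgeR adjusted p = 0.772). *Mtor* itself averaged 82.6 ± 23.2 CPM in double-labelled pools and 89.5 ± 6.98 CPM in DiO-only pools (SD, n = 3 each).

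The kinases between receptor and mTOR showed no member at an unadjusted p under 0.05. Of 17 tested genes of phosphoinositide 3-kinase and AKT, 8 were above and 9 below their DiO-only level, with a median log2 fold change of -0.09. *Pik3r1*, of the regulatory subunit that binds IRS proteins, averaged 36.1 ± 16.0 CPM in double-labelled pools and 42.1 ± 11.3 CPM in DiO-only pools (SD, n = 3 each). The groups overlapped, and the log2 fold change of -0.22 for *Pik3r1* turned to 0.10 without double-labelled pool 1. In the RAS and ERK arm 9 of 19 tested genes were above and 10 below, with a median of -0.07.

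Of FOXO factors and known FOXO targets 11 of 20 were tested, 4 above and 7 below their DiO-only level, with a median log2 fold change of -0.24. The 3 with an unadjusted p under 0.05 were all lower, against 2.63% of all tested genes. *Irs2* and *Insr*, which are also known FOXO targets, were left out of this list and had log2 fold changes of -0.91 and 0.25. *Cdkn1a*, of the cell cycle inhibitor p21, stood at 54.9, 169 and 25.5 CPM in double-labelled pools, against 221, 406 and 292 CPM in DiO-only pools (log2 fold change -1.89 ± 0.58, SE; edgeR adjusted p = 0.617). Without the low-count filter edgeR called *Cdkn1a* (log2 fold change -1.91 ± 0.38, SE; adjusted p = 0.000416), while its adjusted p was 0.0984 in DESeq2 and 0.0643 in edgeR with the replicate block. With 1 library left out its log2 fold change ranged from -2.96 without double-labelled pool 2 to -1.46 without double-labelled pool 3. The edgeR adjusted p was at least 0.243 in these fits. *Gadd45a*, of a DNA damage response protein, stood at 163, 209 and 146 CPM, against 296, 379 and 251 CPM (log2 fold change -0.84 ± 0.31, SE; edgeR adjusted p = 0.720). Both genes are also known targets of p53. *Cat*, of catalase, stood at 52.0, 84.2 and 68.2 CPM, against 109, 94.9 and 134 CPM (log2 fold change -0.73 ± 0.33, SE; edgeR adjusted p = 0.851). Groups did not overlap for any of these 3 genes, where 7.07% of all tested genes were lower without overlap. Those of *Cat* did overlap with total counts. Of the factors, *Foxo1* had 42 counts over all libraries, too few for the test. *Foxo3* averaged 9.86 ± 2.41 CPM in double-labelled pools and 4.78 ± 0.716 CPM in DiO-only pools without overlap (SD, n = 3 each; edgeR adjusted p = 0.956). Higher without overlap were 5.86% of all tested genes.

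Outside the cell, 10 of 19 further ligand, processing and binding protein genes were tested, with 6 above and 4 below their DiO-only level and a median log2 fold change of 0.05. *Ide*, of the insulin-degrading enzyme, was the only one at an unadjusted p under 0.05. It stood at 42.5, 37.0 and 54.4 CPM in double-labelled pools, against 65.8, 79.2 and 84.9 CPM in DiO-only pools (log2 fold change -0.78 ± 0.33, SE; edgeR adjusted p = 0.796). *Igfbp7*, of a related protein that binds IGFs weakly, averaged 5.41 ± 1.73 CPM in double-labelled pools and 5.67 ± 2.60 CPM in DiO-only pools (SD, n = 3 each), and *Igfbp4* had 8 counts over all libraries. Of the genes for IGF2 mRNA-binding proteins only *Igf2bp2* was tested, at 2.13 ± 2.84 and 2.73 ± 0.939 CPM (SD, n = 3 each).

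**Figure D5:**
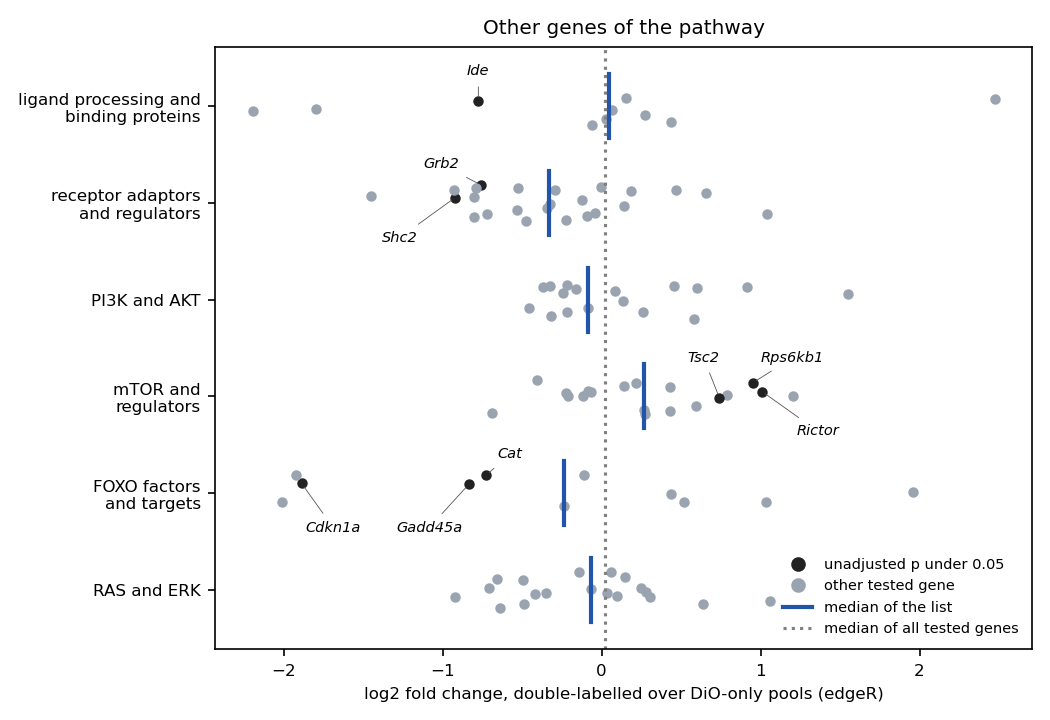
Log2 fold change of double-labelled over DiO-only pools from edgeR for the tested genes of 6 pathway lists, 1 point per gene; dark named points have an unadjusted p under 0.05, blue bars are list medians and the dotted line is the median of all tested genes. Receptor adaptors have a median of -0.33 and mTOR genes one of 0.27, and no point passed after adjustment; the list of IGF mRNA-binding proteins, with 1 tested gene, is not drawn.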

How the data were processed

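The deposited values are raw read counts per Ensembl gene, not normalised. The tools named, per the submitters' processing notes, are FastQC, HISAT2 and HTSeq, and the build is mm10. No source used here gives their versions, the annotation, the strand setting or the handling of multi-mapped reads. Per the labels' protocols, the SMART-Seq HT kit was used with 20 cycles of PCR, 3 batches are mentioned without their libraries, and no molecular identifiers are named, so floors cover counting error only. Counts in the series-wide deposited table were identical to those deposited per library. Coordinates (1-based) and exonic lengths came from the GENCODE M21 annotation (GRCm38, equal to mm10).

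Analysis used R 4.3.3. After edgeR's filterByExpr by group, 12954 genes were tested over all 6 libraries with TMM scaling and the robust quasi-likelihood test (two-sided) in edgeR 4.0.16. P-values were adjusted over all of them by Benjamini-Hochberg, and 0.05 was the threshold. The biological coefficient of variation, common to all genes, was 0.587. Each SE is the log2 fold change divided by the root of F. Alternatives were other scalings and filters, DESeq2 1.42.0, limma 3.58.1 (voom with quality weights), a replicate block and leaving out each library. The edgeR test was run on simulated counts with known changes, many of which it did not call at this group size, so 0 calls do not show equal levels. Single values were compared with exact permutation tests, which cannot go below p = 0.1.

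The members and lists were chosen with earlier results of these data known. All 10 members are named. From each pathway list the genes at an unadjusted p under 0.05 are named, at most 4 per direction, with a fixed set (*Igfbp4*, *Igfbp7*, *Grb10*, *Pik3r1*, *Mtor*, *Foxo1*, *Foxo3* and others not reported here). The 3 genes most like *Igf1r* and most like the 2 other members of smallest p are named too. *Airn*, *Gm9747*, *9530052E02Rik*, *Insl3*, *Insl5*, *Insl6*, *Cd68*, *Mrc1*, *H19*, *Ins1*, *Ins2*, *Igf2bp2*, *Cx3cr1*, *Csf1r*, *Ctss*, *P2ry12*, *C1qa*, *Aif1*, *Slc1a2*, *Atp1b2*, *Aqp4*, *Fgfr3*, *Gja1*, *Aldh1l1*, *Aldoc*, *S100b*, *Mbp*, *Mag*, *Cldn11* and *Aspa* were named after their values were seen. Summed marker levels are TMM-scaled. Interneuron, fibroblast and Schwann cell marker lists, also summed, overlapped between groups. Overlapping and near-identical genes are uncertain.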

Additional observations from a re-analysis of the deposited data

How the results depend on the processing

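Of 90 recomputed log2 fold changes of the 7 tested members, 85 kept their sign, none passed after adjustment, and 5 reversed. Those were *Insr* without double-labelled pool 2 (-0.048) and *Igfbp3* with total counts (0.035) and without DiO-only pool 2 (0.31), double-labelled pool 1 (0.032) or double-labelled pool 2 (0.29), and the cause was not tested. With 1 library left out *Insr* ranged from -0.048 to 0.42 and *Igfbp3* from -1.44 to 0.31. Over all settings *Irs2* ranged from -1.13 to -0.65, with adjusted p of at least 0.332, the value with the replicate block. It had an unadjusted p under 0.05 in 12 of 14 settings, the exceptions being without DiO-only pool 2 and without double-labelled pool 1. Over all settings, too, *Igf1r* ranged from 0.50 to 0.77, *Igf2r* from -0.56 to -0.25, *Igf1* from 0.28 to 0.84 and *Irs1* from 0.15 to 1.77. *Irs1* had too few counts for the filter of 10 counts in 5 libraries. Members called numbered 0 in every setting.

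Over all genes, edgeR called 79 without the low-count filter, DESeq2 called 75 from unfiltered counts, and the replicate block gave 23 calls, against 0 with the filter and no block. Same-numbered pools are not said to be pairs. Their deviations from the group means correlated at 0.074, 0.228 and 0.203, each library most with its own number, which is a hint from the data, not the design. With the block, *Irs2* had a log2 fold change of -0.94 (adjusted p = 0.332), and 12 pathway genes had an unadjusted p under 0.05. That pathway count, 9, was 5 with total counts and 2 to 11 with 1 library left out. With limma voom it was 8 and with DESeq2 9. The 4 pairs with separate ratios numbered 4 with pseudocounts of 0.5 or 5 and 5 to 9 with 1 library left out, alternatives chosen after seeing the data, since smaller groups overlap less. Dividing by the longest transcript in place of all exons moved the level per kb of *Igf1*, *Igf1r* and *Insr* by more than 1 SD. *Igf2*, *Igfbp2* and *Igfbp5* had too few counts for the test at this depth.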
